A study of Mus musculus with 10 samples.

Results

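Heat-shock chaperone genes were followed in R2 cells, bone marrow (BM) erythroid progenitors sorted for CD71, a receptor for transferrin, together with Ter119, an antigen of the red cell lineage. The set was Hspa1a, Hspa1b, Hspa8, Hsph1, Hsp90aa1, Hsp90ab1, Dnajb1, Dnaja1, Hspd1 and Hsf1. These genes were chosen by symbol, and all 10 were found among the 24421 genes of the count table. Ddx41 encodes a DEAD-box RNA helicase, and the study asked how loss of 1 copy of it affects red cell formation and whether Trp53, the gene of p53, takes part. Donor BM came from mice with a tamoxifen-activated Cre (Rosa-CreERT2) and either a single floxed Ddx41 allele or none, on a Trp53+/+ or Trp53+/- background. The Trp53 allele was a germline knockout and needed no Cre. Each recipient, a lethally irradiated BoyJ mouse, was given 1000000 BM cells and then 1 mg of tamoxifen a day in 2 rounds of 5 days, and R2 cells were sorted 8 weeks after transplantation. All 4 groups carried the Cre and all received tamoxifen. The groups were Ddx41+/+ Trp53+/+ (3 mice, 10, 11 and 12), Ddx41+/- Trp53+/+ (2 mice, 32 and 34), Ddx41+/+ Trp53+/- (3 mice, 22, 23 and 24) and Ddx41+/- Trp53+/- (2 mice, 46 and 47), and each library came from 1 mouse. Surviving host cells lack the Cre and the floxed allele, and the sort as described used no donor marker. The age and sex of the mice are not in the labels.

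Heat-shock proteins fold new proteins and refold damaged ones. HSF1, the factor that turns on the heat-shock genes, is held inactive by chaperones and is released when unfolded proteins occupy them. It then binds arrays of the sequence GAA in alternating orientation, the heat-shock elements, in front of Hspa1a, Hspa1b and other chaperone genes. HSP70 proteins work in a cycle with HSP40 proteins, which load the client, and HSP110 proteins, which exchange the nucleotide, while HSP90 proteins act on later folding steps of kinases and receptors. In developing red cells, HSP70 is known to protect the erythroid factor GATA1 from cleavage by caspase-3, and HSP70 and HSP90 bind the heme-regulated kinase HRI.

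The libraries held 7866648 to 20283930 counts, with the shallowest from mouse 34, and 11846 genes passed the filter on low counts, including all 10 heat-shock chaperone genes. Values are CPM, that is, counts per 1000000 counts of the scaled library. Ddx41, the targeted gene, was at 13.8 and 16.5 CPM in the Ddx41+/- Trp53+/+ mice against 21.9 to 25.1 CPM in the Ddx41+/+ Trp53+/+ mice, and at 12.5 and 15.6 CPM against 22.9 to 26.6 CPM with Trp53+/-. Trp53 was at 40.3 to 46.2 CPM in the 5 Trp53+/- mice and at 57.4 to 68.1 CPM in the 5 Trp53+/+ mice. Both targeted genes were therefore lower in every mouse carrying the altered allele. The erythroid markers Tfrc (2692 to 3458 CPM), Klf1 (859 to 1023 CPM), Gata1 (391 to 455 CPM) and Alas2 (7007 to 8440 CPM) were high in every library. The adult globin genes were not: Hba-a1 reached 1.28 CPM, Hba-a2 0.254 CPM and Hbb-bs 0.826 CPM, and Hbb-bt was at 0 in all 10 libraries, so the globins did not serve as markers in these counts and the cause was not tested.

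Hspa1a and Hspa1b encode the stress-inducible HSP70 proteins and lie head to tail on the reverse strand of chromosome 17 (GENCODE M21 on GRCm38). Hspa1a spans 34969190 to 34972156 and Hspa1b 34956436 to 34959238, each is a single exon, and 9951 bases separate them. Their upstream sequences are shown because these were the genes called among the 10 and because they are nearly the same. Each is the 250 bases before the RefSeq start (GRCm38.p6), at chr17:34972157-34972406 for Hspa1a and chr17:34959239-34959488 for Hspa1b, both on the minus strand. The capitals mark a match to the heat-shock unit pair GAANNTTC and, after it, ATTGG, which reads CCAAT on the other strand.
Hspa1a: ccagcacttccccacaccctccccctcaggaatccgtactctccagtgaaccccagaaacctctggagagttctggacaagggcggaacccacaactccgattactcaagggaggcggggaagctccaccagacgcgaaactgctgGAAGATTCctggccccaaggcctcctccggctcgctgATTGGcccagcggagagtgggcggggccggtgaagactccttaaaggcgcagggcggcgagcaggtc
Hspa1b: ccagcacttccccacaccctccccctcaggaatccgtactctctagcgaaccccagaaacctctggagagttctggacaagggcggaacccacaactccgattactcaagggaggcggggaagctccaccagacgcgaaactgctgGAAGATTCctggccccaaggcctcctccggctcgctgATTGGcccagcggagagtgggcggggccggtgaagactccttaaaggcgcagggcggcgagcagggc

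The sequences differ at 3 of 250 positions (98.8% identical), namely C44T, T47C and T249G, with the base of Hspa1a first and positions counted from 1 at the 5′ end. In both, the GAANNTTC match began 104 bases and the CCAAT match 67 bases before the start. The transcripts are also alike: 52.7% of the 75-base stretches of Hspa1a occur in Hspa1b, and 55.8% of those of Hspa1b occur in Hspa1a. How the counting treated reads that match both genes is not stated, so the split of counts between them is uncertain. Their sum was therefore followed as well.

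Of the 10 genes, 6 were matched in the RefSeq promoter table, in 11 windows that run from 250 bases before to 50 bases after a start. Hspa8, Hsp90aa1, Hsp90ab1 and Hsf1 were not matched. Windows were searched on both strands for GAANNTTC, for TTCNNGAA, for the 3-unit arrays GAANNTTCNNGAA and TTCNNGAANNTTC, and for CCAAT. A 3-unit array contains both shorter forms. Among 32851 windows of the table, 7.86% held GAANNTTC, 8.52% TTCNNGAA, 0.603% a 3-unit array and 37.4% CCAAT. A 3-unit array was found in a window of Hspd1 and in both windows of Hsph1, where it lay after the start. Dnaja1 held GAANNTTC in 1 of its 3 windows, and neither window of Dnajb1 held either short form. The matches before a RefSeq start in Hsph1 (chr5:149636352-149636379, minus strand), Hspd1 (chr1:55088049-55088086, minus strand) and Dnaja1 (chr4:40722334-40722361, plus strand) are shown with their flanks to set them beside those of the Hspa1 genes, with the motif in capitals. In GENCODE the outermost start is at 149636376 for Hsph1, 55088243 for Hspd1 and 40722150 for Dnaja1. Each of these motifs therefore lies inside its gene as annotated there, unlike those of the Hspa1 genes.
Hsph1: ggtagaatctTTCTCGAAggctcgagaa
Hspd1: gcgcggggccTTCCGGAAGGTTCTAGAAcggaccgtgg
Dnaja1: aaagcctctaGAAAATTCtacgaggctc

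With Trp53+/+, the R2 cells of Ddx41+/- mice held several times more Hspa1a and Hspa1b mRNA than those of Ddx41+/+ mice. Hspa1a was at 17.1, 27.0 and 6.09 CPM in Ddx41+/+ mice 10, 11 and 12, and at 87.1 and 72.1 CPM in Ddx41+/- mice 32 and 34. Hspa1b was at 41.5, 58.9 and 17.7 CPM in the Ddx41+/+ mice and at 173 and 184 CPM in the Ddx41+/- mice. For both genes the groups did not overlap, the Ddx41+/- mice stood close to each other, and mouse 12 was well below the other Ddx41+/+ mice. Hspa1a averaged 79.6 ± 10.6 CPM (SD, n = 2) in the Ddx41+/- group and 16.7 ± 10.4 CPM in the Ddx41+/+ group (SD, n = 3), a 4.70-fold difference with a 95% interval of 2.64 to 8.37 (log2 fold change 2.23, SE 0.393, adjusted p = 0.0126 by edgeR's two-sided quasi-likelihood test). Hspa1b averaged 179 ± 7.46 CPM (SD, n = 2) in the Ddx41+/- group and 39.4 ± 20.7 CPM in the Ddx41+/+ group (SD, n = 3), a 4.49-fold difference with a 95% interval of 2.70 to 7.47 (log2 fold change 2.17, SE 0.346, adjusted p = 0.00543 by the same test). A gene was called at an adjusted p under 0.05 and a fold change over 1.5. Hspa1a and Hspa1b were the 2 heat-shock chaperone genes called, both higher, where 0.54% of all tested genes were called and 0.38% were called higher. The study itself named this pair from these mice, so their direction is not independent evidence.

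The call needed both Ddx41+/- mice. Leaving out either leaves 1 mouse in that group, which is then assumed to vary like the mice of the other groups. Without mouse 32 the log2 fold change was 2.08 for Hspa1a and 2.21 for Hspa1b, and without mouse 34 it was 2.36 and 2.13, so the size of the difference remained. Without mouse 32 the adjusted p was 0.131 for Hspa1a and 0.0576 for Hspa1b, and without mouse 34 it was 0.101 and 0.0951, all from edgeR's quasi-likelihood test. Over the fits that each lacked 1 mouse, the log2 fold change ran from 1.85 to 2.76 for Hspa1a and from 1.83 to 2.58 for Hspa1b. The lowest of these came without mouse 12 and the highest without mouse 11.

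With Trp53+/-, the Hspa1 genes were not called between the Ddx41 genotypes. Hspa1a was at 9.40, 19.7 and 18.2 CPM in Ddx41+/+ mice 22, 23 and 24, and at 17.6 and 36.9 CPM in Ddx41+/- mice 46 and 47. Hspa1b was at 27.4, 44.4 and 50.5 CPM in the Ddx41+/+ mice and at 34.3 and 74.8 CPM in the Ddx41+/- mice. Mouse 47 was above every Ddx41+/+ mouse for both genes and mouse 46 was within their range, so the groups overlapped. The log2 fold change of Hspa1a was 0.76, with a 95% interval of -0.10 to 1.62, and that of Hspa1b was 0.41, with an interval of -0.35 to 1.16 (both with an adjusted p of 0.9997 by edgeR's quasi-likelihood test). Fold changes of up to 3.08 for Hspa1a and 2.23 for Hspa1b lie within these intervals, and leaving out mouse 47 moved the log2 fold change of Hspa1a to 0.14 and that of Hspa1b to -0.25. With no filter on low counts Hspa1a was called (adjusted p = 9.7e-05 by edgeR's quasi-likelihood test) at the same log2 fold change. That fit took the spread between mice from all genes together, not from the gene itself. Its SE for Hspa1a was 0.145, against 0.407 with the filter, so this call does not allow for how much Hspa1a varied between mice.

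**Figure D1:**
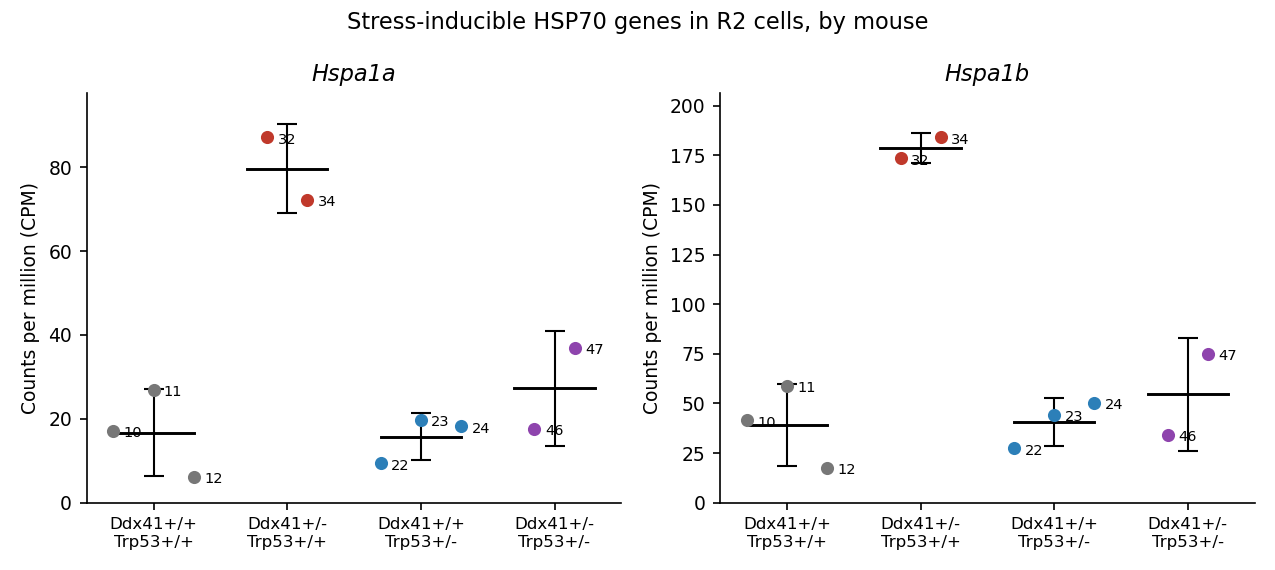
CPM of Hspa1a (left) and Hspa1b (right) in R2 cells, with 1 point per mouse labelled by its number, the genotype on the horizontal axis, the group mean as a bar and 1 SD as the error bar. Mice 32 and 34 (Ddx41+/- Trp53+/+) stand above the other 8 mice for both genes, and the Ddx41+/- Trp53+/- mice, 46 and 47, spread across and above the range of the Ddx41+/+ mice.

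The difference between these Ddx41 effects was tested itself. It was -1.47 on the log2 scale for Hspa1a (95% interval -2.68 to -0.25, adjusted p = 0.845) and -1.76 for Hspa1b (95% interval -2.82 to -0.70, adjusted p = 0.557). Neither was called by edgeR's quasi-likelihood test, in which 0.0675% of all tested genes were called, so the smaller Ddx41 effect with Trp53+/- was not shown to differ from that with Trp53+/+ after adjustment over all genes. Of the 10 genes, 4 had an unadjusted p under 0.05 for this difference (Hspa1a, Hspa1b, Hsp90ab1 and Dnajb1), against 5.01% of all tested genes. DESeq2 called 0 of the 10 and 29 of all tested genes. With no filter on low counts, Hspa1a and Hspa1b were called for this difference, in the fit that took the spread between mice from all genes together. Their SE there was 0.204 and 0.157, against 0.573 and 0.502 with the filter, so these calls do not allow for the spread of each gene. Among Ddx41+/- mice, Trp53+/- went with a log2 fold change of -1.55 for Hspa1a (adjusted p = 0.349) and -1.71 for Hspa1b (adjusted p = 0.125), neither of them called by the same edgeR test, although both were in a fit of these 4 mice alone (adjusted p = 0.00441 and 0.00204). This comparison shares mice 32 and 34 with the one above. Among Ddx41+/+ mice, Trp53+/- and Trp53+/+ cells gave log2 fold changes of -0.08 for Hspa1a (95% interval -0.88 to 0.72) and 0.05 for Hspa1b (95% interval -0.63 to 0.74).

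Summed over the pair, the level was 58.6, 85.9 and 23.8 CPM in mice 10, 11 and 12, 261 and 256 CPM in mice 32 and 34, 36.8, 64.1 and 68.7 CPM in mice 22, 23 and 24, and 51.9 and 112 CPM in mice 46 and 47. Within a genotype the highest mouse exceeded the lowest 3.61-fold in the Ddx41+/+ Trp53+/+ group, 1.02-fold in the Ddx41+/- Trp53+/+ group, 1.87-fold in the Ddx41+/+ Trp53+/- group and 2.15-fold in the Ddx41+/- Trp53+/- group. Among the mice kept in the counts, the closest pair was therefore the pair at the highest level. As 1 feature, the pair rose by 2.19 on the log2 scale in Ddx41+/- against Ddx41+/+ cells with Trp53+/+ (SE 0.360, adjusted p = 0.00707 by edgeR's quasi-likelihood test) and gave 0.52 with Trp53+/- (adjusted p = 0.9998), with a difference of -1.67 between them (adjusted p = 0.703). The share of the pair's counts that fell on Hspa1b was 66.1% to 74.5% over the 10 mice. It was 66.6% (95% exact Clopper-Pearson interval 65.1 to 68.0) in mouse 32 and 71.8% (69.8 to 73.8) in mouse 34, of the same genotype. These intervals did not overlap, but they treat reads as independent molecules, which reads without molecular identifiers are not. They may therefore be too narrow.

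The pair also took a larger part of all heat-shock chaperone counts in the Ddx41+/- Trp53+/+ mice. Its part was 2.66%, 3.49% and 1.15% in mice 10, 11 and 12 and 9.42% and 9.05% in mice 32 and 34. It was 1.47%, 2.80% and 2.90% in mice 22, 23 and 24 and 2.18% and 4.67% in mice 46 and 47. To set levels of different genes side by side, CPM was divided by the kilobases covered by any annotated exon of the gene. On that scale Hspa1b was the sixth of the 10 genes in the Ddx41+/+ Trp53+/+ group (14.0 ± 7.38 CPM per kilobase, SD, n = 3) and the fifth in the Ddx41+/- Trp53+/+ group (63.8 ± 2.66, SD, n = 2), above Hspd1 (29.4 ± 0.302). Hspa1a was the eighth (5.64 ± 3.52) and the seventh (26.8 ± 3.57) in the same groups.

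The mRNA of Hsf1 was not called between the Ddx41 genotypes. Hsf1 was at 14.5, 12.2 and 10.999 CPM in mice 10, 11 and 12, 14.7 and 15.0 CPM in mice 32 and 34, 11.5, 14.3 and 11.1 CPM in mice 22, 23 and 24, and 13.1 and 10.8 CPM in mice 46 and 47. Mice 32 and 34 were the highest of the 10 and mouse 10 was close below them. The log2 fold change for Ddx41+/- with Trp53+/+ was 0.23 (SE 0.181, 95% interval -0.15 to 0.62, adjusted p = 0.753 by edgeR's quasi-likelihood test) and with Trp53+/- it was -0.04. Per kilobase, Hsf1 was the lowest of the 10 genes in every genotype, at 1.77 ± 0.250 CPM per kilobase (SD, n = 3) in the Ddx41+/+ Trp53+/+ mice. The activity of HSF1 protein was not measured.

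Of the 10 genes, Hspa8, Hsph1, Dnajb1 and Dnaja1 encode the constitutive HSP70 and partners of the HSP70 cycle, and none of these 4 was called between the Ddx41 genotypes. Hspa8, the gene of the constitutive protein HSC70, was at 668, 714 and 571 CPM in mice 10, 11 and 12 and at 720 and 828 CPM in mice 32 and 34. Its log2 fold change was 0.25 (95% interval 0.06 to 0.44, adjusted p = 0.350 by edgeR's quasi-likelihood test). Mouse 32 exceeded mouse 11 by little, and the Trp53+/- mice of both Ddx41 genotypes (725 to 805 CPM) lay in the same range as mice 32 and 34. Hspa8 shares 41.3% of its 75-base stretches with other transcripts, most of them with Gm15459.

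Hsph1, the gene of an HSP110 nucleotide exchange factor, was at 38.0, 46.2 and 27.0 CPM in mice 10, 11 and 12 and at 51.2 and 55.6 CPM in mice 32 and 34. It had the largest log2 fold change after the Hspa1 pair, 0.52 (95% interval 0.17 to 0.86, adjusted p = 0.233), and mouse 12 was again the lowest. With Trp53+/- it was at 42.0, 42.6 and 43.8 CPM in the Ddx41+/+ mice and 50.9 and 42.6 CPM in the Ddx41+/- mice, and the groups overlapped (log2 fold change 0.13). Hsph1 shares no 75-base stretch with another annotated transcript.

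Dnajb1, the gene of the HSP40 protein that serves HSP70 in the stress response, was at 252, 270 and 248 CPM in mice 10, 11 and 12 and at 297 and 330 CPM in mice 32 and 34. Its log2 fold change of 0.29 (SE 0.0723, adjusted p = 0.0950 by edgeR's quasi-likelihood test) came nearest to a call after the Hspa1 pair, and its fold change of 1.22 was under the limit of 1.5. With Trp53+/-, Dnajb1 was at 296, 289 and 294 CPM in the Ddx41+/+ mice and 278 and 281 CPM in the Ddx41+/- mice. There the Ddx41+/- mice were below every Ddx41+/+ mouse, by a log2 fold change of -0.07 (95% interval -0.22 to 0.09), the opposite order to that with Trp53+/+. The difference between the effects was -0.35 (95% interval -0.57 to -0.14, adjusted p = 0.568 by edgeR's quasi-likelihood test).

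Dnaja1, the gene of another HSP40 protein, was at 72.1, 82.3 and 76.5 CPM in mice 10, 11 and 12 and at 90.3 and 78.9 CPM in mice 32 and 34. These groups overlapped, with a log2 fold change of 0.14 (adjusted p = 0.706). With Trp53+/- it was at 85.1, 79.5 and 91.9 CPM in the Ddx41+/+ mice and 98.8 and 92.1 CPM in the Ddx41+/- mice, which did not overlap (log2 fold change 0.16, 95% interval -0.04 to 0.36, adjusted p = 0.9997). Dnaja1 was thus the heat-shock chaperone gene whose log2 fold changes in the Trp53 genotypes were closest, with a difference of 0.02 (95% interval -0.27 to 0.31).

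The HSP90 genes stayed within narrow ranges, and Hsp90aa1 varied least of the 10 over the mice. Hsp90aa1, the inducible form, was at 474, 549 and 520 CPM in mice 10, 11 and 12 and at 585 and 562 CPM in mice 32 and 34, a log2 fold change of 0.16 (95% interval -0.0015 to 0.32, adjusted p = 0.527). Hsp90ab1, the constitutive form, was at 550, 611 and 525 CPM in the Ddx41+/+ mice and at 670 and 628 CPM in the Ddx41+/- mice, a log2 fold change of 0.21 (95% interval 0.04 to 0.38, adjusted p = 0.382). Neither pair of groups overlapped, and neither gene was called. With Trp53+/-, Hsp90aa1 was at 498 to 555 CPM in the Ddx41+/+ mice and 515 to 526 CPM in the Ddx41+/- mice, and Hsp90ab1 at 509 to 586 and 509 to 534 CPM, so both overlapped. Of Hsp90aa1, 53.1% of the 75-base stretches occur in other transcripts, most of them in Gm12346, against 0.736% of those of Hsp90ab1.

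Hspd1, the gene of the mitochondrial chaperonin HSP60, was the exception in direction. It was at 74.2, 91.5 and 76.6 CPM in mice 10, 11 and 12 and at 78.3 and 77.2 CPM in mice 32 and 34, with overlapping groups and a log2 fold change of -0.055 (adjusted p = 0.922). With Trp53+/- it was at 80.9, 68.7 and 72.8 CPM in the Ddx41+/+ mice and at 61.6 and 66.0 CPM in the Ddx41+/- mice. The Ddx41+/- mice were lower there without overlap, by a log2 fold change of -0.21 (95% interval -0.44 to 0.01, adjusted p = 0.9997 by edgeR's quasi-likelihood test).

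**Figure D2:**
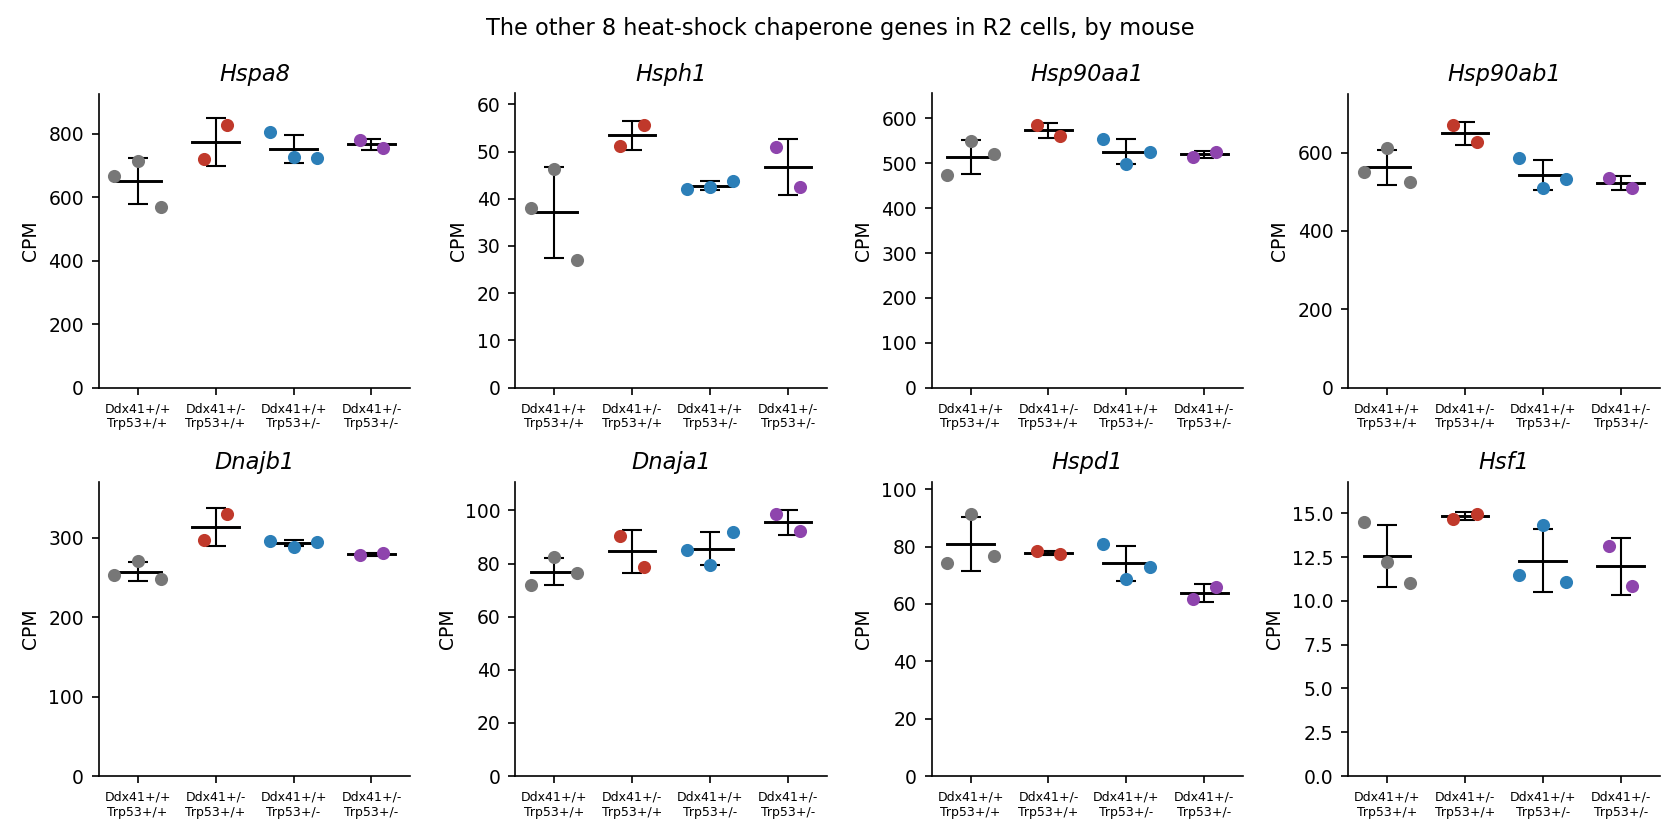
CPM of the other 8 heat-shock chaperone genes in R2 cells, with 1 point per mouse, the genotype on the horizontal axis, the group mean as a bar and 1 SD as the error bar, each panel on its own scale from 0. Mice 32 and 34 (red) lie above the Ddx41+/+ Trp53+/+ mice (grey) in 6 of the 8 panels, the exceptions being Dnaja1 and Hspd1. Of all tested genes, 12.9% showed that order.

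Taken as a set with Trp53+/+, 9 of the 10 genes had a higher mean in Ddx41+/- cells, and the median log2 fold change was 0.24, against 0.00 over all tested genes. In 8 of the 10 both Ddx41+/- mice were above every Ddx41+/+ mouse, an order that 12.9% of all tested genes showed. Beyond the called pair, 4 further genes had an unadjusted p under 0.05 (Hspa8, Hsph1, Hsp90ab1 and Dnajb1), so that 6 of 10 passed that limit against 9.64% of all tested genes. The 10 genes come from the same mice and are not independent replicates. The sum over the 8 genes other than the pair was 2143, 2377 and 2054 CPM in mice 10, 11 and 12 and 2506 and 2575 CPM in mice 32 and 34.

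With Trp53+/-, 5 of the 10 genes had a higher and 5 a lower mean in Ddx41+/- cells, and the median log2 fold change was 0.01, against -0.01 over all tested genes. None was called by edgeR's quasi-likelihood test, where 0.0422% of all tested genes were called. None had an unadjusted p under 0.05, against 3.75% of all tested genes. DESeq2 called 0 of the 10 and 7 of all tested genes. The Ddx41+/- mice were above every Ddx41+/+ mouse for Dnaja1, an order shown by 9.23% of all tested genes, and below them for Dnajb1 and Hspd1, an order shown by 10.8%.

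**Figure D3:**
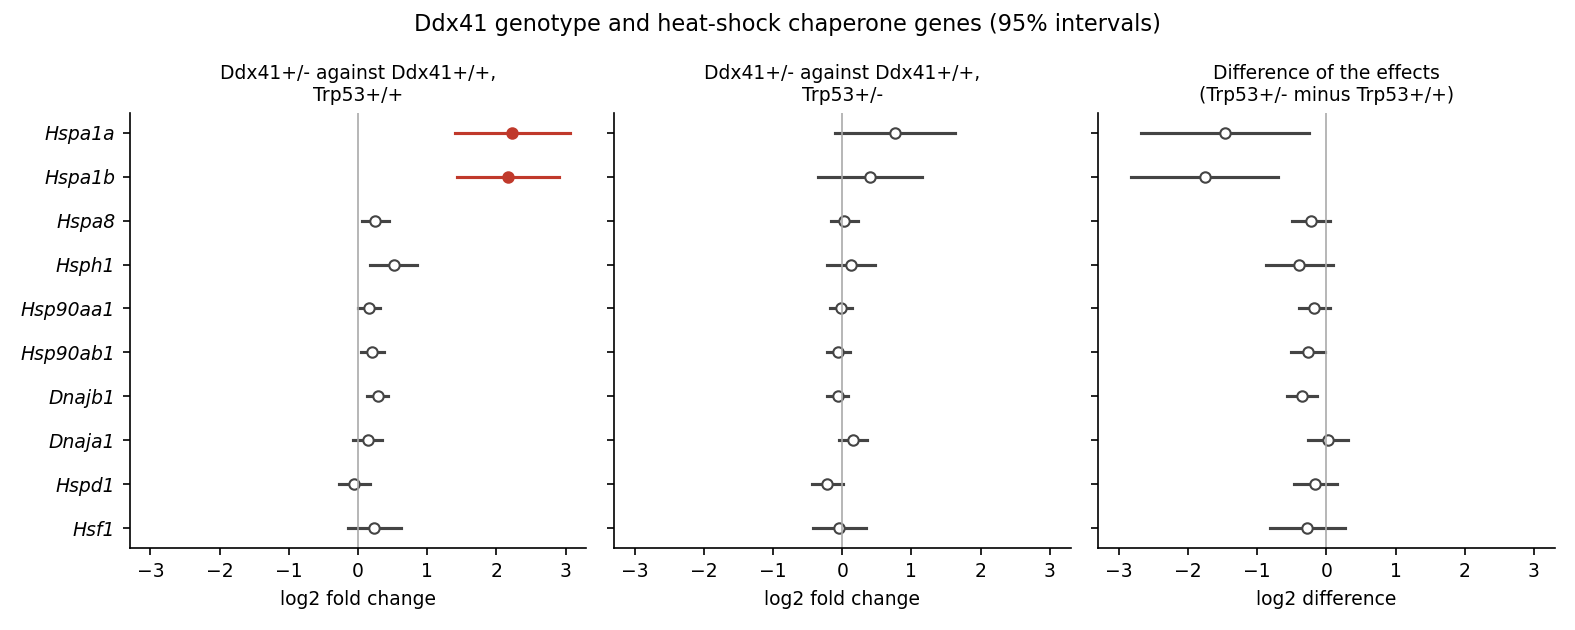
Log2 fold change of each heat-shock chaperone gene in Ddx41+/- against Ddx41+/+ mice, on the Trp53+/+ background (left) and Trp53+/- (middle), and the difference of these effects (right), as points with 95% intervals from edgeR's quasi-likelihood fit. Filled red points, Hspa1a and Hspa1b on the left, are the genes called; no gene was called in the middle or on the right.

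The comparisons of the Trp53 genotypes gave no called heat-shock chaperone gene. Among Ddx41+/+ mice, 0.912% of all tested genes were called by edgeR's quasi-likelihood test and none of the 10. Of the 10, Hspa8 and Dnajb1 had an unadjusted p under 0.05 in that test, as did 9.44% of all tested genes. DESeq2 called 0 of the 10 and 160 of all tested genes. For Hspa8 and Dnajb1, all 3 Trp53+/- mice were above all 3 Trp53+/+ mice, an order that 7.58% of all tested genes showed. The log2 fold change was 0.21 for Hspa8 (95% interval 0.04 to 0.38, adjusted p = 0.387) and 0.19 for Dnajb1 (95% interval 0.05 to 0.33, adjusted p = 0.275). The median of the 10 was 0.04.

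Among Ddx41+/- mice, 0.169% of all tested genes were called and again none of the 10. An unadjusted p under 0.05 was reached by 4 of the 10 (Hspa1a, Hspa1b, Hsp90ab1 and Hspd1), against 5.41% of all tested genes. DESeq2 called 0 of the 10 and 36 of all tested genes. The 2 Trp53+/- mice were below the 2 Trp53+/+ mice for 8 genes, an order shown by 18.5% of all tested genes, and above them for Dnaja1, an order shown by 18.8%. The log2 fold change of Hsp90ab1 was -0.32 (95% interval -0.50 to -0.13, adjusted p = 0.349 by edgeR's quasi-likelihood test) and that of Hspd1 was -0.29 (95% interval -0.53 to -0.04, adjusted p = 0.845). The median of the 10 was -0.24, against a median close to 0 over all tested genes. These 2 mice against 2 are the same mice as in the comparisons above.

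Among single mice, 12 and the pair 32 and 34 stood at opposite ends. Mouse 12 was the lowest of the 10 mice for 5 genes, mouse 32 the highest for 3 and mouse 34 the highest for 5. How often these mice were lowest or highest over all tested genes was not counted, and mouse 34 had the shallowest library. Hspa1a in mouse 12 was 1.89 below the mean of the 10 mice on the log2 scale, and Hspa1a in mouse 32 was 1.92 above it. Over the 10 mice the SD of log2 CPM was 1.18 for Hspa1a and 1.07 for Hspa1b, higher than in 99.5% and 98.8% of all tested genes. For the other 8 the SD ran from 0.09 for Hsp90aa1 to 0.29 for Hsph1, higher than in 11.01% to 63.1% of all tested genes. Within a genotype, the highest mouse exceeded the lowest for Hspa1a by 4.43-fold in the Ddx41+/+ Trp53+/+ group and by 1.21-fold in the Ddx41+/- Trp53+/+ group.

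**Figure D4:**
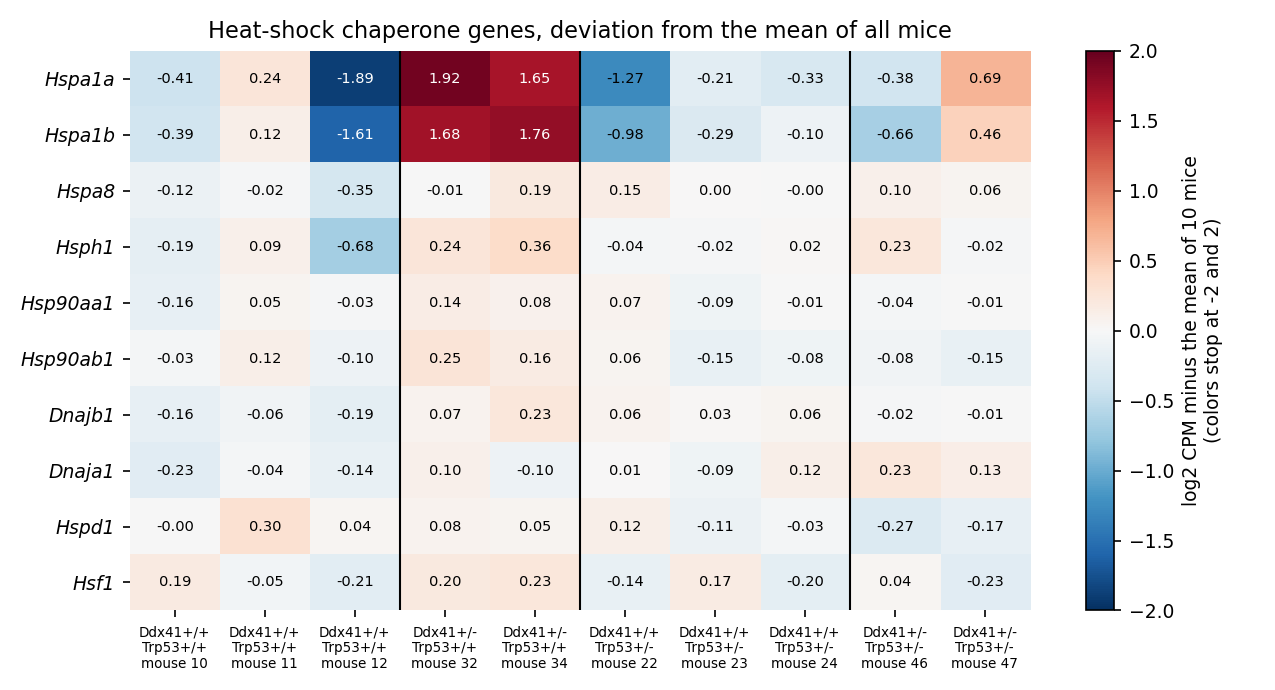
Deviation of each heat-shock chaperone gene in each mouse from its mean over the 10 mice, in log2 CPM, with genotypes divided by black lines. Hspa1a and Hspa1b span from -1.89 in mouse 12 to 1.92 in mouse 32, and the other 8 genes stay between -0.68 and 0.36.

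Per kilobase of exon, the order of the 10 genes in Ddx41+/+ Trp53+/+ cells was Hsp90ab1, Hspa8, Hsp90aa1, Dnajb1, Hspd1, Hspa1b, Dnaja1, Hspa1a, Hsph1 and Hsf1. Hsp90ab1 was at 187 ± 14.7, Hspa8 at 151 ± 17.0, Hsp90aa1 at 131 ± 9.67 and Dnajb1 at 80.2 ± 3.72 CPM per kilobase (SD, n = 3), and the values of Hspa8 and Hsp90aa1 overlapped between mice. Hspa1b, Dnaja1, Hspa1a and Hsph1 each overlapped with the next of them between mice, so their order is not fixed by these mice. The first 4 places were held by the same 4 genes in all 4 genotypes, with Hspa8 above Hsp90ab1 in the Ddx41+/- Trp53+/- mice alone. The order also depends on the length used, the bases in any annotated exon. That length was 7266 for Hsph1, 8629 for Dnaja1 and 7099 for Hsf1, against 4764, 5622 and 3133 in the longest transcript. For Hspa1a and Hspa1b the lengths are the same. These levels count assigned reads, and reads that match several genes could lower the level of a gene with shared sequence, such as Hspa8, Hsp90aa1, Hspa1a, Hspa1b or Hspd1.

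Other chaperone genes were read from hand-written lists. Of 53 cytosolic co-chaperone and other heat-shock response genes in the table, 48 were tested and none was called in any of the comparisons by edgeR's quasi-likelihood test. With Trp53+/+, 20 were higher and 28 lower in Ddx41+/- cells, with a median log2 fold change of -0.03, and with Trp53+/- 17 were higher and 31 lower, with a median of -0.05. The largest change was that of Hspa1l, an HSP70 gene of the same cluster that starts 546 bases from Hspa1a on the other strand. Hspa1l was at 0.844, 0.437 and 0.138 CPM in mice 10, 11 and 12 and at 2.68 and 3.05 CPM in mice 32 and 34, a log2 fold change of 2.53 (SE 0.707, adjusted p = 0.156), and it rested on 2 to 44 counts per library. Of its 75-base stretches, 71.1% occur in Gm10501. Hspa2, another HSP70 gene, gave 0.77 (adjusted p = 0.516) and Hsf2, a relative of Hsf1, gave 0.47 with Trp53+/+ (adjusted p = 0.814) and 0.86 with Trp53+/- (adjusted p = 0.9997). Bag3, an HSP70 co-chaperone, gave 0.37 and Unc45a, an HSP90 co-chaperone, gave 0.32 with Trp53+/-.

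The mitochondrial list, with HSP60's partners and the matrix proteases, held 16 tested genes and no call in any comparison. With Trp53+/+, 4 were higher and 12 lower in Ddx41+/- cells (median log2 fold change -0.05), and with Trp53+/- 3 were higher and 13 lower (median -0.05). Hspa9, the mitochondrial HSP70, was at 86.1, 93.1 and 89.2 CPM in mice 10, 11 and 12 and at 80.5 and 71.4 CPM in mice 32 and 34, and its log2 fold change was -0.23 with either Trp53 genotype (adjusted p = 0.504 and 0.9997). Grpel2, its nucleotide exchange factor, gave -0.30 with Trp53+/+ and -0.16 with Trp53+/-, the unfoldase subunit Clpx gave -0.20 with Trp53+/+, and the protease Lonp1 gave -0.23 with Trp53+/-. None of these passed the test.

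The 25 tested genes of the endoplasmic reticulum (ER), its chaperones and the unfolded protein response, also held no call in any comparison. With Trp53+/+, 15 were higher and 10 lower in Ddx41+/- cells (median log2 fold change 0.04), and with Trp53+/- 11 were higher and 14 lower (median -0.03). Herpud1, a gene of ER-associated degradation, gave 0.56 (adjusted p = 0.336) and 0.22, Dnajb9, an ER HSP40 induced by unfolded protein, gave 0.53 (adjusted p = 0.286) and 0.28, and Canx, the lectin chaperone calnexin, gave -0.26 (adjusted p = 0.246) and -0.17, each with Trp53+/+ first.

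**Figure D5:**
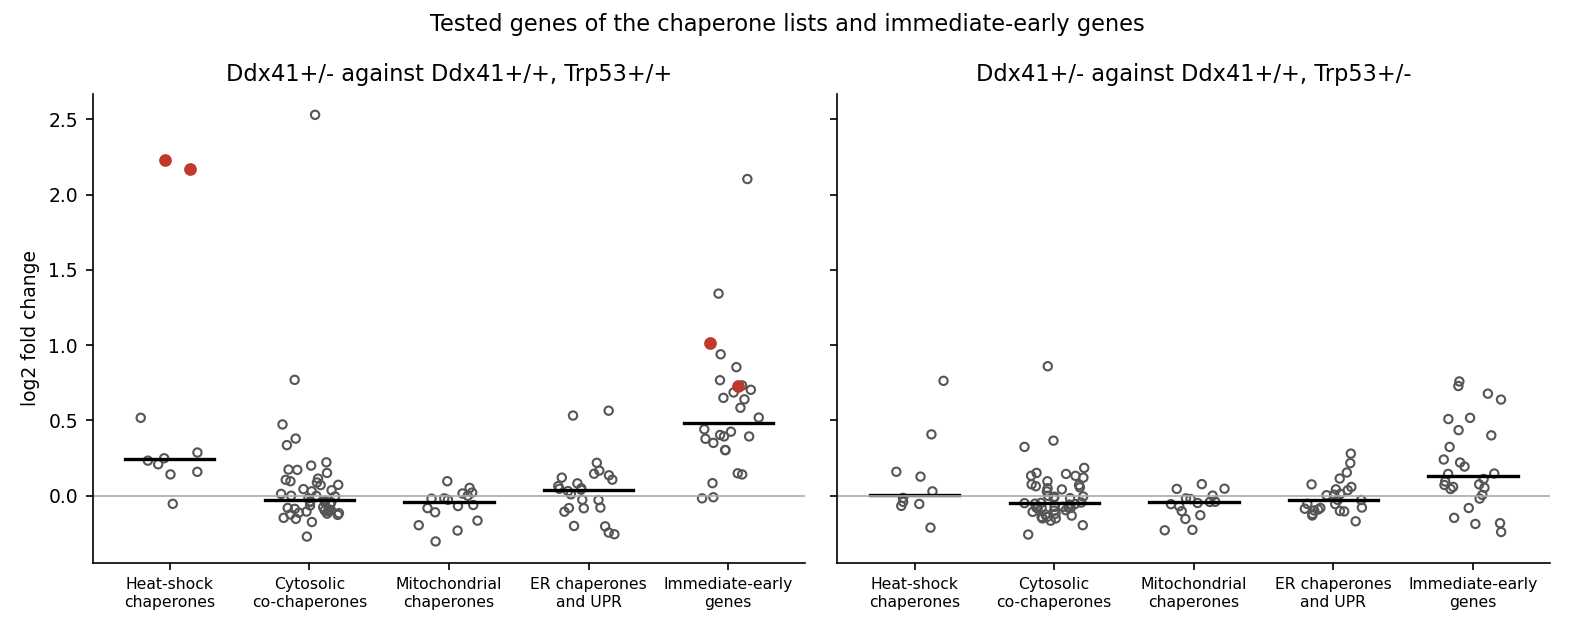
Log2 fold change in Ddx41+/- against Ddx41+/+ mice of each tested gene of the heat-shock chaperones, cytosolic co-chaperones, mitochondrial chaperones, chaperones and unfolded protein response (UPR) genes of the endoplasmic reticulum (ER), and immediate-early genes, with Trp53+/+ (left) and Trp53+/- (right), and the median of each list as a bar. Filled red points are genes called; with Trp53+/+ the medians are 0.24, -0.03, -0.05, 0.04 and 0.48, and the highest open point among the cytosolic co-chaperones is Hspa1l at 2.53.

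Genes outside the chaperone lists moved in the same mice. Immediate-early genes, which are induced within minutes of a stimulus or of cell handling, had a median log2 fold change of 0.48 in Ddx41+/- cells with Trp53+/+, with 26 of 28 higher. Of the 28, 18 were higher without overlap, where 12.9% of all tested genes were, and 2 were called, where 0.54% of all tested genes were. Those called were Fosb (log2 fold change 1.01, adjusted p = 0.00673 by edgeR's quasi-likelihood test) and Klf6 (0.73, adjusted p = 0.0493). Their summed level was 4919 to 5466 CPM in the Ddx41+/+ Trp53+/+ mice, 6327 to 6733 CPM in the Ddx41+/- Trp53+/+ mice, 5552 to 6515 CPM in the Ddx41+/+ Trp53+/- mice and 6322 to 6480 CPM in the Ddx41+/- Trp53+/- mice.

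Markers of B cells were higher as well in the Ddx41+/- Trp53+/+ mice, with 15 of 15 tested genes higher, a median log2 fold change of 0.98 and 2 called (Cd79a and Ebf1), where 0.54% of all tested genes were called. They summed to 328 to 554 CPM in the Ddx41+/+ Trp53+/+ mice and 514 to 726 CPM in the Ddx41+/- Trp53+/+ mice, with no tested marker at 0 in any library. In the Ddx41+/+ Trp53+/- mice they summed to 530 to 635 CPM and in the Ddx41+/- Trp53+/- mice to 590.0 to 681 CPM. For Trp53+/- against Trp53+/+ among Ddx41+/+ mice, 15 of 15 B cell markers were higher, with a median log2 fold change of 1.24. There 7 were called, where 0.912% of all tested genes were, and the summed Hspa1 pair gave 0.01. Macrophage markers summed to 534 to 906 CPM and 613 to 770 CPM in the Ddx41+/+ and Ddx41+/- mice with Trp53+/+, neutrophil markers to 5548 to 8961 CPM and 6557 to 8828 CPM, T and NK cell markers to 9.52 to 19.5 CPM and 17.6 to 24.3 CPM, and megakaryocyte markers to 91.8 to 102 CPM and 98.7 to 100.5 CPM, with none called. With Trp53+/-, 15 of 15 macrophage markers were higher in Ddx41+/- cells (median log2 fold change 0.52) and 0 were called, where 0.0422% of all tested genes were. The part of other cells or of handling in the Hspa1 difference was not tested. In sorted cells in bulk, fewer cells of a type and less RNA per cell cannot be told apart.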

How the data were processed

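R2 cells of 10 recipients were profiled by RNA-seq of poly(A) RNA, from about 100000 sorted cells per mouse according to the labels. The values deposited are raw counts of reads for each gene symbol, with no normalization applied by the authors. The submitters' processing notes name FastQC 0.11.7, HISAT2 2.0.5, featureCounts 1.5.2 and the build mm10, while the annotation and the strand and multiple-mapping settings are not given in the sources used here. The labels name a stranded TruSeq kit and the paper TruSeq RNA v2. The counts are named as leaving out 2 further mice, which were not analysed here. Their numbers, given in that name, stand next to those of the Ddx41+/- mice. Their genotype and the reason for leaving them out are not given. The spread within each group is therefore that of the mice kept.

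The counts were tested with edgeR 4.0.16 (R 4.3.3). The filter was filterByExpr, which kept 11846 of 24421 genes, libraries of 7866648 to 20283930 counts were scaled by TMM, and all libraries entered 1 quasi-likelihood model with a mean for each genotype. The paper names iGeak and AltAnalyze for these reads and gives no count model or covariates. Two-sided p-values were adjusted over all tested genes (Benjamini-Hochberg), and a gene was called at an adjusted p under 0.05 and a fold change over 1.5. The SE of a log2 fold change was its size divided by the square root of F, and 95% intervals used the model's degrees of freedom. Log2 CPM had a prior count of 2. Intervals on shares of counts were exact Clopper-Pearson intervals and cover counting error only, since reads without molecular identifiers are not independent molecules. The procedure was tested on simulated data.

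The genes and lists were chosen with earlier results of these data known. The text names all 10 heat-shock chaperone genes, Ddx41 and Trp53, in each chaperone list every gene called and the 3 with the largest absolute log2 fold change for Ddx41 with each Trp53 genotype, and the 5 genes most correlated with the Hspa1 sum and with Hsf1. Called genes of the marker and immediate-early lists are named beyond this rule, chosen after their values were seen. Positions are from GENCODE M21 (GRCm38), promoters from RefSeq (GRCm38.p6), and shared sequence is the percentage of 75-base stretches of the longest transcript found, on either strand, in a transcript of another gene. Reference tables and plots were handled in Python 3.11.15 with pandas 2.3.3 and matplotlib 3.10.9. Alternatives were DESeq2 1.42.0, its size factors within edgeR, at least 10 counts in every library, no filter, no limit on the fold change, a fit of only the genotypes compared, the Hspa1 counts summed, and each mouse left out.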

Additional observations from a re-analysis of the deposited data

Results flagged for a closer look

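The order of the Dnajb1 values between the Ddx41 genotypes was opposite in the Trp53 genotypes. With Trp53+/+ both Ddx41+/- mice (297 and 330 CPM) were above all Ddx41+/+ mice (248 to 270 CPM), and with Trp53+/- both (278 and 281 CPM) were below all Ddx41+/+ mice (289 to 296 CPM). The same values give an opposite order for the Trp53 genotype. Trp53+/- mice held more Dnajb1 among Ddx41+/+ mice and less among Ddx41+/- mice. Neither decrease was shown. The log2 fold change was -0.07 (95% interval -0.22 to 0.09) for Ddx41 with Trp53+/-. It was -0.17 (95% interval -0.33 to 0.0034) for Trp53 with Ddx41+/-. Of all tested genes, 12.9% had both Ddx41+/- mice above every Ddx41+/+ mouse with Trp53+/+. With Trp53+/-, 10.8% had both below. The difference between the effects was -0.35 on the log2 scale, the same number for both views, and it did not pass the test (adjusted p = 0.568 by edgeR's quasi-likelihood test, unadjusted p = 0.00326).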

How the results depend on the processing

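Over 7 settings other than leaving out a mouse, 328 of 335 log2 fold changes of the heat-shock chaperone genes and their sum kept their direction and side of the threshold, 7 passed it in addition and 0 reversed. The setting with no limit on the fold change used the main fit itself, so no direction could change there. Summing Hspa1a and Hspa1b left 1 called feature in place of 2 for Ddx41 with Trp53+/+, by construction. With no filter on low counts (16135 genes, with infinite prior degrees of freedom in the fit against 10.1), 1 of the 10 genes was called for Ddx41 with Trp53+/-, 2 for Trp53 with Ddx41+/- and 2 for the difference of the effects, against 0 in each, and a fit of only the genotypes compared called 2 for Trp53 with Ddx41+/- (Hspa1a, adjusted p = 0.00441, and Hspa1b, adjusted p = 0.00204, by edgeR's quasi-likelihood test). In the same order of comparisons, Ddx41 with Trp53+/+, Ddx41 with Trp53+/-, Trp53 with Ddx41+/+, Trp53 with Ddx41+/- and the difference, all tested genes gave 64, 5, 108, 20 and 8 calls. DESeq2 gave 131 for the first, 36 for the fourth and 29 for the fifth, no filter gave 243, 39, 250, 67 and 100, at least 10 counts in every library gave 2 for the second, and only the genotypes compared gave 66 for the third and 37 for the fourth. With a mouse left out, the calls over all tested genes ranged from 13 to 103, 1 to 10, 35 to 115, 13 to 24 and 8 to 12. Calls among the 10 genes ranged from 0 (without mouse 32 or mouse 34) to 2 for Ddx41 with Trp53+/+ and from 0 to 1 for Trp53 with Ddx41+/- (Hspa1b without mouse 12, adjusted p = 0.0127 by edgeR, a mouse that enters this comparison only through the shared estimate of the spread), and stayed at 0 for the others. Of 500 log2 fold changes with a mouse left out, 25 reversed, none of them in a comparison where the gene was called. These ranged, for Ddx41 with Trp53+/+, from -0.11 to 0.051 for Hspd1. For Ddx41 with Trp53+/- they ranged from -0.25 to 0.86 for Hspa1b, -0.0058 to 0.26 for Hsph1, -0.054 to 0.024 for Hsp90aa1, -0.10 to 0.0021 for Hsp90ab1 and -0.18 to 0.10 for Hsf1. For Trp53 with Ddx41+/+ they ranged from -0.46 to 0.44 for Hspa1a, -0.28 to 0.46 for Hspa1b, -0.023 to 0.082 for Hsp90aa1, -0.11 to 0.012 for Hsp90ab1 and -0.16 to 0.082 for Hsf1. For Trp53 with Ddx41+/- the range was -0.10 to 0.093 for Hspa8, and for the difference -0.067 to 0.13 for Dnaja1. Except where stated, the cause was not tested. With DESeq2's size factors as many of the 10 genes were higher in each comparison as with TMM. Groups of 2 and 3 mice limit what could be called. No paired analysis was possible because the genotypes share no replicate numbers.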

Other observations

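The genes whose log2 CPM followed the summed Hspa1 pair most closely over the 10 mice were Trim24 (Pearson's r 0.943), Hist1h2ag (0.922), Hspa1l (0.915), Ahr (0.908) and Secisbp2 (0.889). Their Spearman's rho over the same mice was 0.976 for Trim24, 0.867 for Hist1h2ag, 0.867 for Hspa1l, 0.806 for Ahr and 0.794 for Secisbp2. The points share their libraries and depth, the genes were the highest of all tested, and 2 mice with the highest pair level weigh on each value. Trim24, a transcriptional cofactor and ubiquitin ligase, was at 71.0 ± 7.67 CPM (SD, n = 3) in Ddx41+/+ and 87.7 ± 4.19 CPM (SD, n = 2) in Ddx41+/- cells with Trp53+/+, and at 74.4 ± 4.66 and 79.3 ± 8.02 CPM with Trp53+/-. Ahr, the aryl hydrocarbon receptor, a client of HSP90, was at 1.03 ± 0.180 and 2.27 ± 0.0250 CPM with Trp53+/+ and at 1.17 ± 0.236 and 1.39 ± 0.570 CPM with Trp53+/-. Ahr rested on 12 to 37 counts per library and Hist1h2ag on 5 to 36, so a small SD of Ahr between 2 mice is not a measure of precision. None of the 5 was called between the Ddx41 genotypes by edgeR's quasi-likelihood test.

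The genes most like Hsf1 were Zbtb48 (Pearson's r 0.960), Dpm3 (0.939), Tmem208 (0.933), Fv1 (0.931) and G6pc3 (0.904), over the same 10 mice. None was a chaperone gene of the lists, and none was called between the Ddx41 genotypes by the same test.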
